A study of Rattus norvegicus with 8 samples.

Results

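A set of 10 genes of hepatic bile acid synthesis and of its control by the bile acid receptor FXR was followed in rat liver. They are Cyp7a1, Cyp8b1, Cyp27a1, Cyp7b1, Hsd3b7, Akr1d1, Amacr, Baat, Nr0b2 and Nr1h4. The genes were chosen by symbol, and every array probe that carries one of those symbols was taken. All 10 of the 10 genes had a probe, and the 11 probes all passed the filter on dim signals, among 16720 probes of 14894 genes tested in the same livers.

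The livers came from 8 Wistar rats killed at weaning, at an age of 21 days. The 4 control animals (1 male, 3 female) were born to dams on standard food. The 4 deficient animals (2 male, 2 female) were born to dams whose food lacked vitamin B12 and folate from a month before pregnancy until the pups were weaned. Which dam each pup came from was not stated in the labels, so some replicates may share a litter, and p-values here reflect the spread among these pups only.

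Bile acids are made from cholesterol in hepatocytes. The classic route opens with Cyp7a1, its rate-limiting enzyme, and the alternative route with Cyp27a1 and Cyp7b1; shared enzymes then remodel the sterol ring, shorten the side chain and join the acid to taurine or glycine. Bile acids bind the nuclear receptor FXR, the product of Nr1h4, which induces the repressor SHP, the product of Nr0b2, and SHP in turn holds down transcription of Cyp7a1 and Cyp8b1.

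Sequences of the probes that read the comparison enzymes, and promoters of members on both sides of the test, are shown here so that each value can be tied to its target. The 60-base probe of Cyp8b1 lies at chr8:127019903-127019962 and that of Cyp27a1 at chr9:74067772-74067831, both on the plus strand of the rn4 build as the files give it.
Cyp8b1 probe: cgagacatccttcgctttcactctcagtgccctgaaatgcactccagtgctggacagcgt
Cyp27a1 probe: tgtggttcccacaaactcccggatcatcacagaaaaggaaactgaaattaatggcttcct

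Promoter windows from RefSeq (GRCr8 build, 250 bases before to 50 after the start) were found for 6 of the 10 members, which are Cyp8b1, Cyp27a1, Hsd3b7, Amacr, Baat and Nr0b2. Those of Cyp7a1, Cyp7b1, Akr1d1 and Nr1h4 were not used here. The 250 upstream bases of Nr0b2 (chr5:151062910-151063159, plus strand) and of Baat (chr5:68656138-68656387, minus strand) are given 5′ to 3′, with matches to the NR5A2 core TCAAGG or the nuclear receptor half-site AGGTCA, on either strand, in capitals.
Nr0b2: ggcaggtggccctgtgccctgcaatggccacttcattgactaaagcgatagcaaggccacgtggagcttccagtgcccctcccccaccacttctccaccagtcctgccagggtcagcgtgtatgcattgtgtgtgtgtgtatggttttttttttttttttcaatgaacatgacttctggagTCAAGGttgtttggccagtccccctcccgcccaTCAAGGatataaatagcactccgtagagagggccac
Baat: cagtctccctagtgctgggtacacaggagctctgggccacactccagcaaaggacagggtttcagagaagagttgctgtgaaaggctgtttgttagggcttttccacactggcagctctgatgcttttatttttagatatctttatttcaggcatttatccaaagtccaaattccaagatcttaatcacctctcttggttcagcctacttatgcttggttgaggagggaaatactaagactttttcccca

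The Nr0b2 window held TCAAGG at 69 and at 36 bases before the start, a motif present in 14.8% of the 33469 promoter windows of the table. Amacr had TCAAGG once, at 243 bases before the start, there as part of the longer TCAAGGNC (4.1% of windows), and AGGTCA once at 201 bases. Cyp27a1 carried AGGTCA at 236 and at 115 bases before the start, against 16.2% of all windows with at least 1 match. The inverted repeat AGGTCANTGACCT, found in 0.027% of windows, was in none of the 6, and the Baat, Cyp8b1 and Hsd3b7 windows held none of the motifs searched. Only exact matches within these windows were searched, so the absence of a match does not speak to imperfect or more distant sites.

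In the deficient livers 3 of the 10 genes fell, and they sit at 3 different steps: Cyp7a1 at the entry of the classic route, Baat at the last step, conjugation, and Nr1h4, the gene of the receptor FXR. None of the 10 rose, and the other 7, among them Cyp8b1, Cyp27a1, Cyp7b1 and the SHP gene Nr0b2, did not pass limma's test at an adjusted p of 0.05. Cyp7a1 had the largest difference, with control livers 5.98-fold above deficient ones, and its change was larger than those of Cyp8b1, Cyp27a1 and Cyp7b1. The size of the Cyp7a1 difference depended on the processing, and its readings in deficient 1, 2 and 4 were low (7.32 to 7.58). Of all 16720 probes, 11.0% passed the same test. Counted per gene, 6.57% of the 14894 genes were lower and 4.54% higher, against 30% and 0 of the 10 members. The median difference over the 10 genes was −0.10 on the log2 scale, and 0.01 over all probes. In whole liver, fewer cells of a type and less RNA per cell cannot be told apart.

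**Figure D1:**
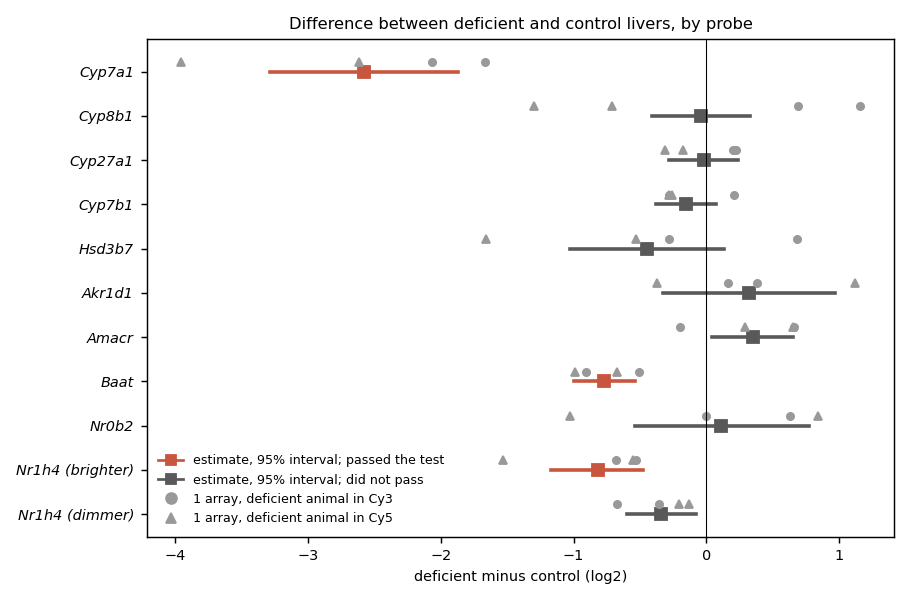
Difference between deficient and control livers (log2, deficient minus control) for the 11 probes of the 10 genes. Squares are estimates with 95% intervals, red where the probe passed the test (Cyp7a1, Baat and the brighter Nr1h4 probe); small symbols are the log2 ratios of the single arrays, circles with the deficient animal in Cy3 and triangles in Cy5.

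All levels below are normalized log2 intensities of a probe, comparable between livers but not between genes, and every difference is deficient minus control on the log2 scale with the standard error of the fit. Each array carried 1 control and 1 deficient liver in different dyes, so that an array also gives a ratio of its own. Control 1 shared array 1 with deficient 3, control 3 shared array 2 with deficient 1, control 2 shared array 3 with deficient 4, and control 4 shared array 4 with deficient 2.

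Cyp7a1 encodes the hydroxylase that commits cholesterol to bile acids. Its probe (chr5:19707410-19707469, minus strand) read 10.92, 9.65, 11.28 and 10.04 in controls 1 to 4 and 7.32, 7.42, 9.25 and 7.58 in deficient animals 1 to 4. All 4 deficient livers lay below all 4 controls; deficient 3 came close to control 2, the lowest control, and the other deficient livers lay far below. The fitted difference was −2.58 ± 0.31 (95% interval −3.29 to −1.87, n = 4 and 4; limma adjusted p = 0.00292), and the ratios of arrays 1 to 4 were −1.67, −3.96, −2.07 and −2.62. Lower values were seen in both sexes: the male control stood at 10.92 and the deficient males at 7.42 and 7.58, while control females ranged from 9.65 to 11.28 and deficient females stood at 7.32 and 9.25. Among the females alone the difference was −1.93 and did not pass (limma adjusted p = 0.108).

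The Cyp7a1 probe is printed at 10 spots on each array, whose scatter covers differences between places on an array but not those between arrays or labellings. The SD of the 10 spots within a liver was between 0.09 and 0.33, against SDs between animals of 0.76 in the controls and 0.91 in the deficient group. In deficient 1, 9 of the 10 spots were well above background, and in the other livers all 10 were. The Cyp7a1 readings of 7.32 to 7.58 in deficient 1, 2 and 4 were nonetheless low. Mpo, a probe well above background in only 5 of the 8 livers, read 6.88 to 7.48. Cyp7b1, at 7.88 to 8.44, also read low.

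**Figure D2:**
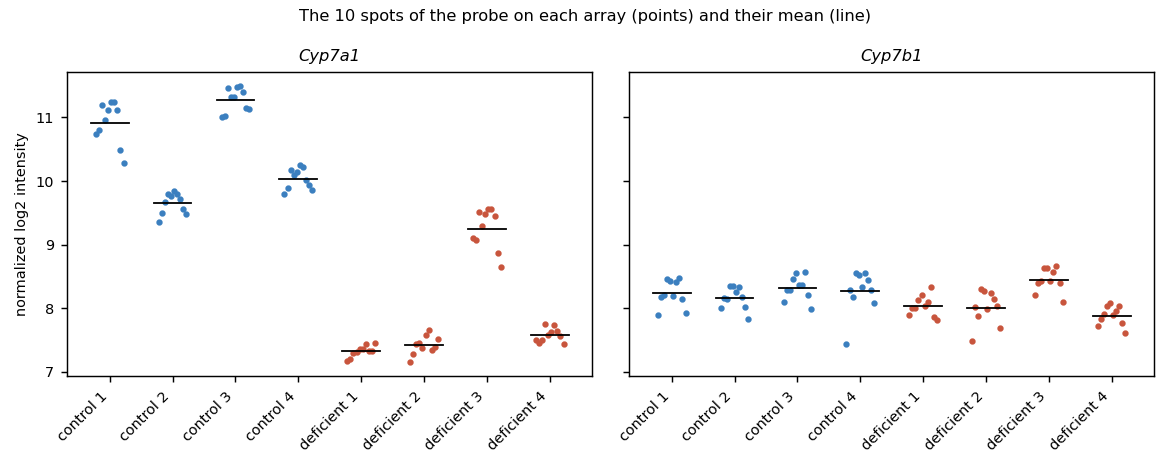
Normalized log2 intensity of each of the 10 spots (points) of the Cyp7a1 and Cyp7b1 probes in every liver, with their mean (line). Cyp7a1 means of the deficient livers lie under those of the controls, with the spots of deficient 3 (mean 9.25) closest to control 2 (mean 9.65), while Cyp7b1 means stay between 7.88 and 8.44 in all 8 livers.

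Cyp8b1, a sterol hydroxylase, decides how much of the product becomes cholic acid and is repressed by SHP as Cyp7a1 is. It read 10.98, 10.81, 11.47 and 11.72 in controls 1 to 4 and 10.18, 11.00, 12.14 and 11.50 in deficient animals 1 to 4. The groups overlapped over most of their range, and the difference was −0.04 ± 0.16 (95% interval −0.41 to 0.33; limma adjusted p = 0.899). Its values followed the dye: the 4 livers in Cy3 read 11.47 to 12.14 and the 4 in Cy5 10.18 to 11.00, a Cy5 minus Cy3 difference of −0.96 ± 0.16. It was the only one of the 11 probes whose dyes did not overlap, and the array ratios of 1.16, −1.30, 0.69 and −0.71 change sign with the dye of the deficient animal. Overlap of the dyes does not mean that dye had no part, since each dye held livers of both groups. The Cy5 minus Cy3 difference was −0.71 ± 0.31 for Cyp7a1 and −0.65 ± 0.25 for Hsd3b7. The Cyp7a1 array ratios were −1.67 and −2.07 with the deficient animal in Cy3 and −3.96 and −2.62 with it in Cy5. Dye was balanced over the groups and is a term of the fit.

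Cyp27a1, the mitochondrial sterol hydroxylase of the alternative route and of side chain oxidation, read 11.93, 12.41, 12.10 and 12.51 in controls 1 to 4. In deficient animals 1 to 4 it read 11.91, 12.20, 12.15 and 12.62, inside nearly the same range. Its difference of −0.02 ± 0.11 had a 95% interval of −0.28 to 0.24 (limma adjusted p = 0.939), which leaves room for a change of about that size in either direction.

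Cyp7b1, the oxysterol hydroxylase that follows Cyp27a1, has a probe (chr2:103103702-103103761) with 10 spots per array, as Cyp7a1 has. It read 8.23, 8.16, 8.32 and 8.27 in controls 1 to 4 and 8.03, 8.0, 8.44 and 7.88 in deficient animals 1 to 4. In Cyp7b1, 3 deficient livers lay below every control and deficient 3 lay above every control. The difference of −0.15 ± 0.10 (95% interval −0.38 to 0.07) did not pass (limma adjusted p = 0.361), and within a liver the spots had SDs of 0.15 to 0.33.

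Whether Cyp7a1 changed more than the other hydroxylases was tested on the difference itself. Cyp7a1 minus Cyp8b1 was −0.06, −1.16, −0.19 and −1.68 in controls 1 to 4 and −2.85, −3.59, −2.89 and −3.93 in deficient animals 1 to 4, so that the groups did not overlap. The level of such a difference between probes has no meaning of its own, and only its change between groups is read. The change of Cyp7a1 minus that of the other gene was −2.54 for Cyp8b1, −2.56 for Cyp27a1 and −2.43 for Cyp7b1. Each of the 3 differences was below 0 on 4 of 4 arrays. Each had p = 0.0286 in a two-sided exact permutation test over animals, the smallest p that 4 against 4 allows (0.0286 after adjustment over the 3). Cyp7a1 was chosen for these tests with its fall known, and all 3 share its values. Their p-values therefore add little to that fall, and the sizes are given as description. In the females alone the 3 changes were −1.86, −1.73 and −2.03, with too few animals for the exact permutation test to pass.

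**Figure D3:**
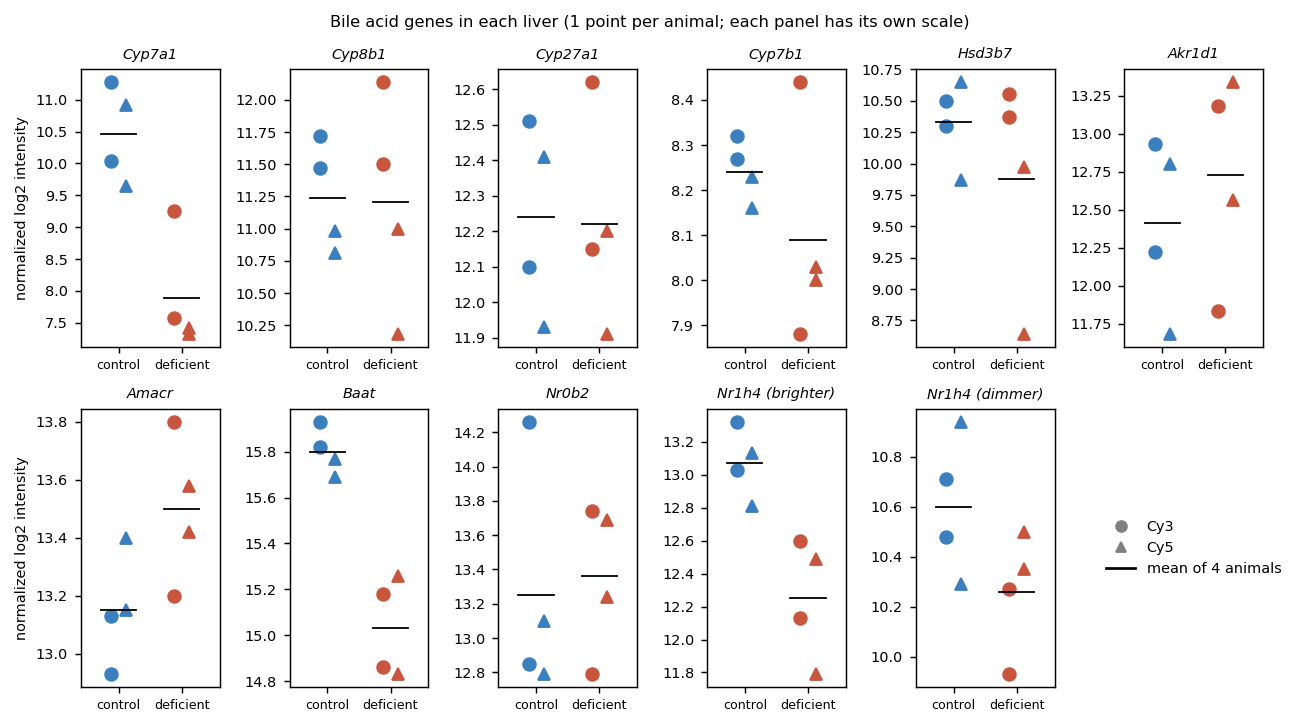
Normalized log2 intensity of the 11 probes in each of the 8 livers, each panel on its own scale; circles are livers labelled with Cy3, triangles with Cy5, and lines are means of 4 animals. Cyp7a1, Baat and the brighter Nr1h4 probe separate the groups without overlap, and Cyp8b1 separates the dyes.

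Hsd3b7, Akr1d1 and Amacr, which act on the ring and side chain after the hydroxylases, did not pass the test. Hsd3b7, the dehydrogenase that acts on the products of both routes, read 9.87, 10.65, 10.30 and 10.50 in controls 1 to 4 and 8.64, 9.97, 10.55 and 10.37 in deficient animals 1 to 4. Only deficient 1 stood below every control, and the difference was −0.45 ± 0.25 (95% interval −1.03 to 0.13; limma adjusted p = 0.29). Akr1d1, the reductase of the sterol ring, read 11.68, 12.80, 12.93 and 12.22 in controls 1 to 4 and 12.56, 13.34, 11.83 and 13.18 in deficient animals 1 to 4. Both deficient males were above every control and deficient 3 near the bottom, for a difference of 0.32 ± 0.28 (95% interval −0.33 to 0.97; limma adjusted p = 0.505).

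Amacr, the racemase that readies the side chain for peroxisomal shortening, read 13.40, 13.15, 13.13 and 12.93 in controls 1 to 4 and 13.42, 13.58, 13.20 and 13.80 in deficient animals 1 to 4. In Amacr, 3 deficient livers exceeded every control, deficient 1 only just, and deficient 3 lay among the controls. The difference was 0.35 ± 0.13 (95% interval 0.04 to 0.65), at an unadjusted p of 0.0306 and a limma adjusted p of 0.135. Without deficient 3 it was 0.49, and without array 1, which carried that animal, 0.56, and it then passed (limma adjusted p = 0.0488 and 0.0373).

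Baat joins bile acids to taurine or glycine before secretion. Its probe (chr5:66245796-66245855) read 15.69, 15.77, 15.82 and 15.93 in controls 1 to 4 and 14.83, 15.26, 15.18 and 14.86 in deficient animals 1 to 4. The controls lay within a narrow band and every deficient liver was below it. The difference was −0.77 ± 0.10 (95% interval −1.0 to −0.54), a control level 1.71-fold that of the deficient livers (limma adjusted p = 0.00418), and the array ratios were −0.51, −0.99, −0.91 and −0.67. Without array 3 the difference was −0.67 and missed the threshold (limma adjusted p = 0.0555), as it did with median centring in place of loess (−0.67, adjusted p = 0.0686) and in females alone (−0.80, adjusted p = 0.0902).

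Nr1h4, the gene of FXR, has 2 probes on the array. The brighter (chr7:26189988-26190047) read 13.13, 12.81, 13.32 and 13.03 in controls 1 to 4 and 11.79, 12.49, 12.60 and 12.13 in deficient animals 1 to 4. Every deficient liver was below every control, with a difference of −0.82 ± 0.15 (95% interval −1.17 to −0.48), a control level 1.77-fold that of the deficient livers (limma adjusted p = 0.0129). The dimmer probe (chr7:26189760-26189819) read 10.94, 10.29, 10.71 and 10.48 in controls and 10.50, 10.35, 10.27 and 9.93 in deficient animals, where the groups overlapped. Its difference of −0.34 ± 0.12 (95% interval −0.60 to −0.08) had the same direction on all 4 arrays but missed the threshold (limma adjusted p = 0.0968), so that the call for Nr1h4 rests on 1 of its 2 probes. Without control 2 the dimmer probe passed, at −0.47 (limma adjusted p = 0.0494).

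Several choices ended the call of the brighter Nr1h4 probe. Its limma adjusted p was 0.0586 without control 1, 0.0813 without control 3, 0.0687 without deficient 4 and 0.132 without array 3, with differences from −0.79 to −0.71. With the array as a fixed block it was 0.0704, without any block 0.0569, with median centring 0.0969 and in the females 0.121.

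Nr0b2, the gene of the repressor SHP and a classic FXR target, read 12.79, 13.10, 12.85 and 14.26 in controls 1 to 4. In deficient animals 1 to 4 it read 13.69, 13.24, 12.79 and 13.74. Control 4 was the highest liver of all and the lowest liver of each group stood at 12.79. The difference was 0.11 ± 0.29 (95% interval −0.54 to 0.77; limma adjusted p = 0.83), with array ratios of 0.00, 0.84, 0.63 and −1.03.

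In 3 of the 10 genes the groups did not overlap and the deficient livers were lower, against 6.00% of all genes tested, and in 0 were they higher, against 5.51%. At an unadjusted p under 0.05 the count was 5 of the 11 probes, which adds Amacr and the dimmer Nr1h4 probe to the 3 called; 4641 of all 16720 probes were under the same threshold.

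Other genes of the pathway, taken from lists made by role, are described beside the members. Of 12 other enzymes of synthesis, 10 were tested (Cyp46a1 and Ch25h were too dim); 4 were lower, 1 was higher and 5 did not pass, with differences of −0.03 to 0.52. Slc27a5, the ligase that activates bile acids for Baat, fell by 1.73 ± 0.19 (limma adjusted p = 0.00292), over 7 livers because the spot of control 3 was an outlier on its array. It read 17.37, 17.47 and 17.41 in the measured controls and 15.26, 15.94, 16.00 and 15.30 in deficient animals 1 to 4, with no overlap.

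Cyp39a1, a hydroxylase of brain-derived oxysterols, had a difference of −1.08 ± 0.12 (limma adjusted p = 0.00223). Slc27a2, a ligase that activates side chain intermediates, rose by 0.77 ± 0.09 (limma adjusted p = 0.00292). Akr1c14, a dehydrogenase of the sterol ring, was lower by −0.48 ± 0.10 (limma adjusted p = 0.0189), as was Scp2, whose longer product is a peroxisomal thiolase of the side chain, at −0.45 ± 0.11 (limma adjusted p = 0.0352). The median of the 10 was 0.04. Acaa1a gave 0.11 at its brighter probe and 0.69 at its dimmer one, which passed (limma adjusted p = 0.0317), so that its probes gave different calls.

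Of 18 regulators, all 18 were tested and 17 did not pass, with differences between −0.35 and 0.33 and a median of 0.00. Nr1h2, the gene of the oxysterol receptor LXRβ, was the one called, at 0.41 ± 0.08 (limma adjusted p = 0.0174). The next by p were Ppargc1a, a coactivator of Cyp7a1, at 0.33 ± 0.10 (limma adjusted p = 0.0748), and Fgfr4, the hepatic receptor of the ileal hormone FGF15, at −0.35 ± 0.12 (limma adjusted p = 0.0891). Gps2, a corepressor subunit, was at 0.17 ± 0.08 (limma adjusted p = 0.242). Chosen after their values were seen, Nr5a2 and Hnf4a, activators of Cyp7a1 and Cyp8b1, were at −0.03 ± 0.11 and −0.16 ± 0.10 and did not pass. The Hnf4a probe read low, at 8.12 to 8.57 in controls and 7.87 to 8.47 in deficient livers. Its Cy5 minus Cy3 difference was −0.32 ± 0.10, larger than its difference between the groups.

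Of 20 FXR targets and bile acid transporters, 17 were tested (Slc51a, Abcg8 and Vldlr were too dim). Of the 17, 4 were lower, 1 was higher and 12 did not pass, with a median of −0.05 over the 17. Those that did not pass had differences of −1.08 to 0.28, the lowest being Slco1a4 (−1.08 ± 0.39, limma adjusted p = 0.11). Slc10a1, the main sodium-dependent importer of bile acids (NTCP), read 15.14, 15.37, 15.25 and 15.28 in controls 1 to 4 and 14.34, 14.41, 14.19 and 13.94 in deficient animals 1 to 4. The groups were well apart, and it fell by 1.04 ± 0.09 (limma adjusted p = 0.00108). Slco1a1, a sodium-independent importer, was lower by −0.78 ± 0.15 (limma adjusted p = 0.0147). The secreted proteins Fetub and C3, both described as FXR targets, were at −1.19 ± 0.14 and −1.02 ± 0.12 (limma adjusted p = 0.00298 for each), and Apoc2, an apolipoprotein target, rose by 0.49 ± 0.10 (limma adjusted p = 0.0217). Abcb11, the bile salt export pump and a direct FXR target, was at −0.13 ± 0.33 (limma adjusted p = 0.83). It read 13.08, 10.79, 11.08 and 11.12 in deficient animals 1 to 4, against controls of 11.41 to 12.02. Deficient 1 thus lay above every control, and deficient 2, 3 and 4 lay below every control.

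Several of these calls were lost when 1 liver was left out, whichever of several livers it was. Scp2 missed the threshold in 18 of 27 alternative settings, among them without any of controls 1, 2 and 3 or deficient 1, 3 and 4 (differences of −0.47 to −0.33, limma adjusted p from 0.0612 to 0.164). Akr1c14 missed it in 14, among them without any of the 4 controls or deficient 4 (−0.53 to −0.43, limma adjusted p from 0.0577 to 0.0805). Nr1h2 missed it in 12, among them without control 1, 2 or 3 or deficient 4 (0.45 to 0.36, limma adjusted p from 0.0503 to 0.117). Apoc2 missed it in 11, among them without deficient 1 or 4 or control 2 or 3 (0.40 to 0.42, limma adjusted p from 0.0507 to 0.127), and Slco1a1 in 9, among them without control 1, 2 or 3 (−0.78 to −0.71, limma adjusted p from 0.0581 to 0.0926). C3 was lost without array 3 (−0.96, limma adjusted p = 0.0518). Ppargc1a passed without deficient 3 (0.43, limma adjusted p = 0.0382), and Fgfr4 and Gps2 without deficient 2 (−0.43 and 0.25, limma adjusted p = 0.0344 and 0.038).

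**Figure D4:**
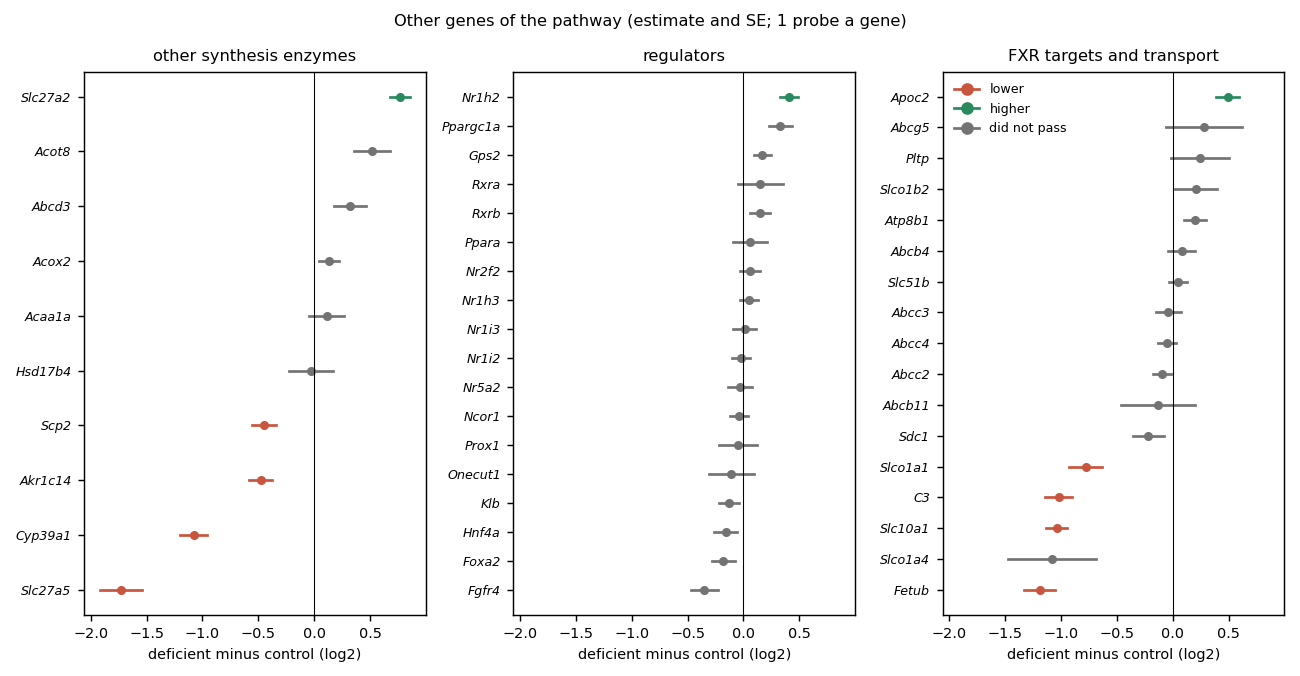
Difference between deficient and control livers (log2, with SE) for the other enzymes of synthesis, the regulators and the FXR targets and transporters, 1 probe a gene. Lower calls (red) include Slc27a5, Cyp39a1, Slc10a1, Fetub and C3, higher calls (green) are Slc27a2, Nr1h2 and Apoc2, and grey genes did not pass.

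Among 10587 genes with a symbol, the closest to Cyp7a1 in profile over the 8 livers were found by the root mean square difference of profiles centred on their means, which for Cyp7a1 itself is 1.48 against a flat profile. They were Ces1d (0.52), Bst2 (0.58), Gsta2 (0.58), Serpina3c (0.59) and Gsta5 (0.60). Gsta2 and Gsta5 are close copies within a gene family, which their probes may not tell apart. Ces1d, a carboxylesterase, read 13.23, 13.15, 13.14 and 12.38 in controls 1 to 4 and 10.07, 10.22, 12.27 and 10.95 in deficient animals 1 to 4, with deficient 3 again the highest of its group. Since likeness was taken over both groups, a similar fall in the deficient livers is part of the measure.

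The 10 hepatocyte markers were well above background in all 8 livers, with a mean level of 15.57 to 15.76 in controls and 15.30 to 15.89 in deficient livers; of 10, 3 were lower (Ttr −0.89, Tf −1.01, Serpina1 −0.59), 1 higher (Apoa2 1.86) and 6 did not pass. Of 8 pericentral markers tested, the zone where Cyp7a1 is mostly expressed, 2 were lower (Glul −0.70, Cyp1a2 −1.19) and 1 higher (Slc1a2 0.69), and of 9 periportal markers 2 were lower and 2 higher. None of 4 cholangiocyte, 7 Kupffer cell, 4 erythroid or 4 endothelial markers passed. Neutrophil markers were lower in 3 of 4, and 1 of 6 stellate cell markers, Lrat, was lower (−0.67 at its brighter probe). The dimmer Lrat probe, at −0.27 ± 0.08, did not pass (limma adjusted p = 0.0665). Of 6 ileum markers 5, Fgf15 among them, were too dim to be tested. Of 8 skeletal muscle markers 4, Ckm among them, were too dim. Of the other 4, Tnnc2 was called (2.85) and was above the controls in all 4 deficient livers. Acta1, Mylpf and Tnni2 read 9.16, 11.65 and 11.50 in deficient 3, the deficient liver with the highest Cyp7a1, all above the controls; elsewhere only Acta1 in deficient 2 (7.96) was above the highest control (7.85). The mean of the 4 was 8.23 to 10.94 in deficient livers and 7.42 to 8.04 in controls. The part of these marker differences in the results for the bile acid genes was not tested.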

How the data were processed

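Liver RNA of 8 rats was measured on 4 Agilent 2-colour arrays of 1 slide, 1 control and 1 deficient animal on each, with the deficient animal in Cy3 on 2 arrays and in Cy5 on 2. Per the file headers, the deposited spot intensities were read from the scans by Agilent Feature Extraction, version 10.7.1.1. A second, linear table of intensities that the authors normalized was deposited too; how is not stated in the labels, and it served as an alternative. Median signals were 152.5 to 299.0 against median backgrounds of 33 to 58, 59.1% to 65.5% of spots were well above background and 0 were saturated; the number of arrays limits the precision.

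With limma 3.58.1 in R 4.3.3, spots with a local background over 5 times their channel's median were left out (74 spot values), and signals were corrected by normexp (offset 50), loess and Aquantile. Spots of a probe were averaged and outlier spots left out. A probe was tested if well above background in at least 4 of 8 samples. The fit had diet and dye as terms and array as a random block (estimated correlation 0.42), with Benjamini-Hochberg adjustment over 16720 probes at 0.05. Differences between the changes of 2 genes were tested by exact permutation of the animals' groups. For a gene of the other lists the brightest probe was used. Gene symbols come from the arrays' annotation and were brought up to date with RefSeq's table.

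The genes, the lists of pathway and marker genes and the tests were chosen with earlier results of these data known. From each list of pathway genes, up to 4 genes with the smallest p are named. Further genes, called or not, were named after their values were seen. The 5 genes most like Cyp7a1 follow a rule. Replicate numbers follow sample order and pair no animals. Alternatives changed the background step, normalization, filter, block, dye and sex terms and sample weights, and left out each animal and each array in turn.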

Additional observations from a re-analysis of the deposited data

Results flagged for a closer look

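In 2 of the 49 groups of 4 animals examined, 1 animal lay far from the others by Dixon's ratio. That ratio is the gap to the nearest animal over the whole range of the group. Chance alone flags about 1 in 20 groups. Examined were the 11 member probes and the pathway genes that were called or had 1 of the 4 smallest p of their list. Abcb11 was not among them, and there deficient 1 (13.08) stood apart from the other deficient livers (10.79 to 11.12). Cyp7a1 in deficient 3 was 9.25 against 7.32 to 7.58 in the other deficient livers, a ratio of 0.868. Fetub in deficient 3 was 15.63 against 14.67 to 14.82, a ratio of 0.843. Without deficient 3 the Cyp7a1 difference was −2.87 (limma adjusted p = 0.00213). The same liver had the highest level of the skeletal muscle markers (10.94) and of Cyp8b1 (12.14) in its group. That liver was labelled in Cy3, and all livers in Cy3 read higher for Cyp8b1 than all in Cy5. The part of the muscle markers or of Cyp8b1 in its Cyp7a1 level was not tested.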

How the results depend on the processing

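Of the 10 genes, Cyp7a1 passed in 26 of 27 alternative settings, Baat in 24 and the brighter Nr1h4 probe in 19, each with the same direction in all 27. The size of the Cyp7a1 difference depended on the processing. It was −3.33 with the scanner software's processed signals and −2.09 with high-background spots kept, against −2.58 in the main fit. The probes called among the 11 numbered 3; they were 1 with median centring and 0 in the 3 control and 2 deficient females alone, and 1 (without array 3) to 4 (without control 2, without deficient 3 or without array 1) when an animal or array was left out. The count over all probes, 1845, was 1036 with high-background spots kept, 1172 with the scanner software's processed signals, 335 with median centring, 518 with array as a fixed block, 410 without a block, 890 without the dye term, 898 with sex added, 43 in the females and 2906 with sample weights. Leaving out animals or arrays gave 238 (without array 3) to 3893 (without deficient 2). The cause of these shifts was not tested. The females alone and the settings with some left out also held fewer animals.

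The change of Cyp7a1 minus that of Cyp8b1, Cyp27a1 or Cyp7b1 was −1.86, −1.73 and −2.03 in the females. With processed signals it was −3.31, −3.34 and −3.12, and with high-background spots kept −1.93, −2.0 and −2.0. It ranged from −2.84 to −2.30, −3.04 to −2.16 and −2.76 to −2.01 with an animal or array left out. In those 12 settings the exact permutation test was passed in 6, 3 and 6. Leaving out an array raises the smallest possible p to 0.1, so none could pass there. Leaving out a single animal does not raise it. Without control 1 or without control 3, all the comparisons missed the threshold (exact permutation test, adjusted p = 0.0571). Genes that did not pass changed sign in places: Cyp27a1 was 0.01 with processed signals, 0.04 in the deposited table and 0.10 with sample weights, and in the females Cyp7b1 was 0.02, Akr1d1 −0.59, Cyp8b1 0.04 and Nr0b2 −0.03. With an animal or array left out, Cyp27a1 lay between −0.10 and 0.05, Akr1d1 between −0.05 and 0.70, Cyp8b1 between −0.20 and 0.15 and Nr0b2 between −0.35 and 0.58. The array as a fixed block pairs the control and deficient liver of each array, and there Cyp7a1 (−2.58, limma adjusted p = 0.0169) and Baat (−0.77, adjusted p = 0.0368) passed and the brighter Nr1h4 probe (−0.82, adjusted p = 0.0704) did not. The exact permutation tests did not use that pairing.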
